A study of Mus musculus with 28 samples.

Results

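The array's probe sets name 18193 mouse genes singly. The genes described are 32 of these, DNA repair and checkpoint genes chosen by name with earlier results of these data known. They cover homologous recombination (Brca1, Brca2, Bard1, Rad54l, Rad51ap1, Blm and Exo1), the Fanconi anaemia pathway (Fanca, Fancd2, Fanci, Fancg and Fancl), the checkpoint kinases (Atm, Atr, Chek1 and Chek2), the MRN complex (Mre11a, Rad50 and Nbn), end joining (Xrcc5, Xrcc6, Prkdc and Lig4), base excision and single-strand break repair (Xrcc1, Lig3, Parp1 and Ung), mismatch repair (Msh6 and Pms2) and nucleotide excision repair (Ercc1, Xpc and Ddb2). Each gene was read from its brightest probe set. All 32 were on the array and 31 passed the detection filter, a value above 4.27 log2 units in at least 2 arrays; Bard1, the partner of Brca1, lay between 2.27 and 3.13 on all 28 arrays and was not tested. Since the filter asks for 2 arrays of any kind, a gene high in 1 condition only could still pass it.

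The study profiled CD8+ and CD4+ T cells isolated from mouse spleen by negative selection, stimulated for 2 days with antibodies to CD3 and CD28, which stand in for antigen and costimulation, and then kept for 1 more day with a drug. The drugs were romidepsin at 2, 10 or 30 nM and vorinostat at 0.5, 2 or 10 µM, both of which block histone deacetylases and so raise histone acetylation. Each cell type therefore gave 7 groups, a stimulated control and 6 drug doses, with 2 arrays a group and 28 arrays in all. All groups, controls included, carried the stimulation; the labels name no vehicle in the controls and give no strain, genotype, sex or age of the mice, and do not say whether 2 replicates came from separate mice, so p-values measure only the spread between these arrays.

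A cell that finds a double-strand break in its DNA has 2 main ways to mend it. End joining rejoins the broken ends directly: the Ku heterodimer, made of Ku80 (gene Xrcc5) and Ku70 (Xrcc6), binds the ends, recruits the kinase DNA-PKcs (Prkdc), and DNA ligase IV (Lig4) seals them, a route that lymphocytes also need to assemble antigen receptor genes. Homologous recombination copies the sister chromatid after replication; the MRN complex starts the trimming of the ends and activates the kinase Atm, Exo1 lengthens the single strand, and Brca1 and Brca2 help load the recombinase. Atr and Chek1 restrain the cell cycle when replication stalls, Atm and Chek2 when ends are broken, and the Fanconi genes handle crosslinks between strands. Many genes of recombination and of the replication checkpoint are transcribed most in dividing cells.

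The values are deposited GCRMA intensities on a log scale, read as log2 on the basis of their range. Changes were tested with limma over all 28 arrays and adjusted over the 9871 genes tested, and a gene was called at an adjusted p under 0.05. The fit used a mean for each group with no other term. Arrays of the same replicate number deviated together in every group, so a second fit added replicate number, per cell type, as a block, and both fits are given where they differ. The median 95% interval for 1 change reached 0.97 log2 units to either side without the block and 0.35 with it. Each value stands for a bulk culture, in which fewer cells of a type and less RNA per cell cannot be told apart.

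The arrays of replicate 1 carried between 8446 and 8670 genes over the detection level and those of replicate 2 between 9058 and 9321. The 3 general T cell markers were over it on all 28 arrays, no myeloid, NK or red cell marker was over it on any, and between 0 and 3 of 5 B cell markers were. The B cell markers averaged between 2.77 and 3.82 log2 units on the 8 arrays at the top doses and between 3.19 and 5.56 on the 4 control arrays. The T cell markers averaged between 9.46 and 11.5 at the top doses and between 11.2 and 12.1 in the controls. Their part in the changes below was not tested. Cd4 itself stood at 2.75 and 4.14 in CD4 cells at 30 nM romidepsin and at 2.39 and 4.72 at 10 µM vorinostat, against 8.55 and 8.02 in CD4 controls, so at these doses the label rests on the isolation and not on Cd4 transcript. CD8 markers were over the detection level in CD4 controls, Cd8a at 5.09 and 6.07 and Cd8b1 at 7.49 and 7.99. In CD8 controls Cd8b1 read 11.93 and 12.18. In CD4 cells Cd8b1 read 5.32 and 7.08 at 30 nM and 5.38 and 6.33 at 10 µM. The part of CD8 transcripts in CD4 cultures in the comparisons of cell types was not tested. The 3′ minus 5′ probe set difference of beta-actin is a measure of RNA length. It lay between 0.90 and 1.62 log2 units at the top dose of each drug and between 0.78 and 0.94 in the controls. In every group it was higher in replicate 1 than in replicate 2. The part of this difference, and of the lower number of detected genes in replicate 1, in the changes below was not tested.

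Across the 31 genes, most calls in CD8 cells were falls and those in CD4 cells were a mixture of rises and falls. Most were called only in the fit with the replicate block. With the block, 18 genes were called at 10 µM vorinostat in CD8 cells (64.0% of all genes tested were called), 18 at 2 µM (36.8% of all genes), 13 at 30 nM romidepsin (52.4%) and 10 at 10 nM (17.2%). By direction the calls were uneven. As the list was chosen with earlier results of these data known, shares set against all genes describe it and are no independent test. Of those calls, 16 at 10 µM vorinostat were falls, which is 51.6% of the 31 genes against 32.4% of all genes, and 2 were rises, against 31.6% of all genes. At 2 µM all 18 were falls, 58.1% of the 31 genes against 20.5% of all genes. At 30 nM romidepsin all 13 were falls, 41.9% against 24.6%, and at 10 nM all 10, 32.3% against 8.13%. With 1 array of either group left out, the blocked fit called 11 to 17 genes at 10 µM, 8 to 17 at 2 µM, 9 to 15 at 30 nM and 0 to 8 at 10 nM, where the fit with no filter on low values called 4. The median change of the 31 genes in CD8 cells was -0.30 log2 units at 10 nM and -0.33 at 30 nM romidepsin, and -0.45 at 2 µM and -0.45 at 10 µM vorinostat, while that of all genes tested lay between -0.03 and 0.02 at those doses. Without 1 array the CD8 medians stayed below 0 with the block (between -0.55 and -0.23). Without the block they lay between -0.85 and 0.01, nearest 0 when replicate 1 of the drug was left out and lowest when replicate 2 was.

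In CD4 cells 16 genes were called with the block at 10 µM vorinostat (61.2% of all genes), 6 at 2 µM (28.3%), 15 at 30 nM romidepsin (63.7%) and 13 at 10 nM (48.2%), each a smaller share than among all genes. At 10 nM 6 rose and 7 fell (26.2% higher and 22.0% lower among all genes), and at 2 µM 1 rose and 5 fell (12.4% and 15.9%). Rises numbered 10 and falls 6 at 10 µM vorinostat, against 31.9% higher and 29.3% lower among all genes, and 9 and 6 at 30 nM romidepsin, against 35.4% higher and 28.3% lower. The median change was 0.09 log2 units at 10 µM vorinostat and 0.10 at 30 nM romidepsin, against 0.02 and 0.07 over all genes. Neither sign held in the fit without the block, where the median at 10 µM was -0.22 without replicate 2 of the drug and -0.20 without replicate 1 of the control, and that at 30 nM -0.29 and -0.19. With the block both stayed above 0, between 0.01 and 0.18. Without the block, 3 genes were called in CD8 cells at 10 µM vorinostat (20.6% of all genes), 1 at 2 µM (3.3%) and 1 at 30 nM romidepsin (10.8%), and in CD4 cells 4 at 10 µM vorinostat (18%), 1 at 2 µM (1.42%), 3 at 30 nM romidepsin (21.2%) and 1 at 10 nM (8.64%). No gene was called by limma at 10 nM romidepsin in CD8 cells without the block (1.12% of all genes), where 1 of 31 had an unadjusted p under 0.05.

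At the lowest doses, 2 nM romidepsin and 0.5 µM vorinostat, none of the 31 genes was called by limma in either cell type, with or without the block; with the block 0.0% of all genes were called at 2 nM and 1.13% at 0.5 µM in CD8 cells, and 0.922% and 0.253% in CD4 cells, while without it the shares were 0.0% at both doses in CD8 cells and 0.0304% and 0.0101% in CD4 cells. At an unadjusted p under 0.05 the blocked fit gave 1 gene at 2 nM and 18 at 0.5 µM in CD8 cells, and 3 and 2 in CD4 cells. The share of all genes at an unadjusted p is not given for this or any other unadjusted count in this text. Such counts cannot be set against the shares called at an adjusted p. In CD8 cells at 0.5 µM vorinostat 29 of 31 changes lay below 0, with a median of -0.32 against -0.05 over all genes. The share of all genes below 0 at this dose is not given here.

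**Figure D1:**
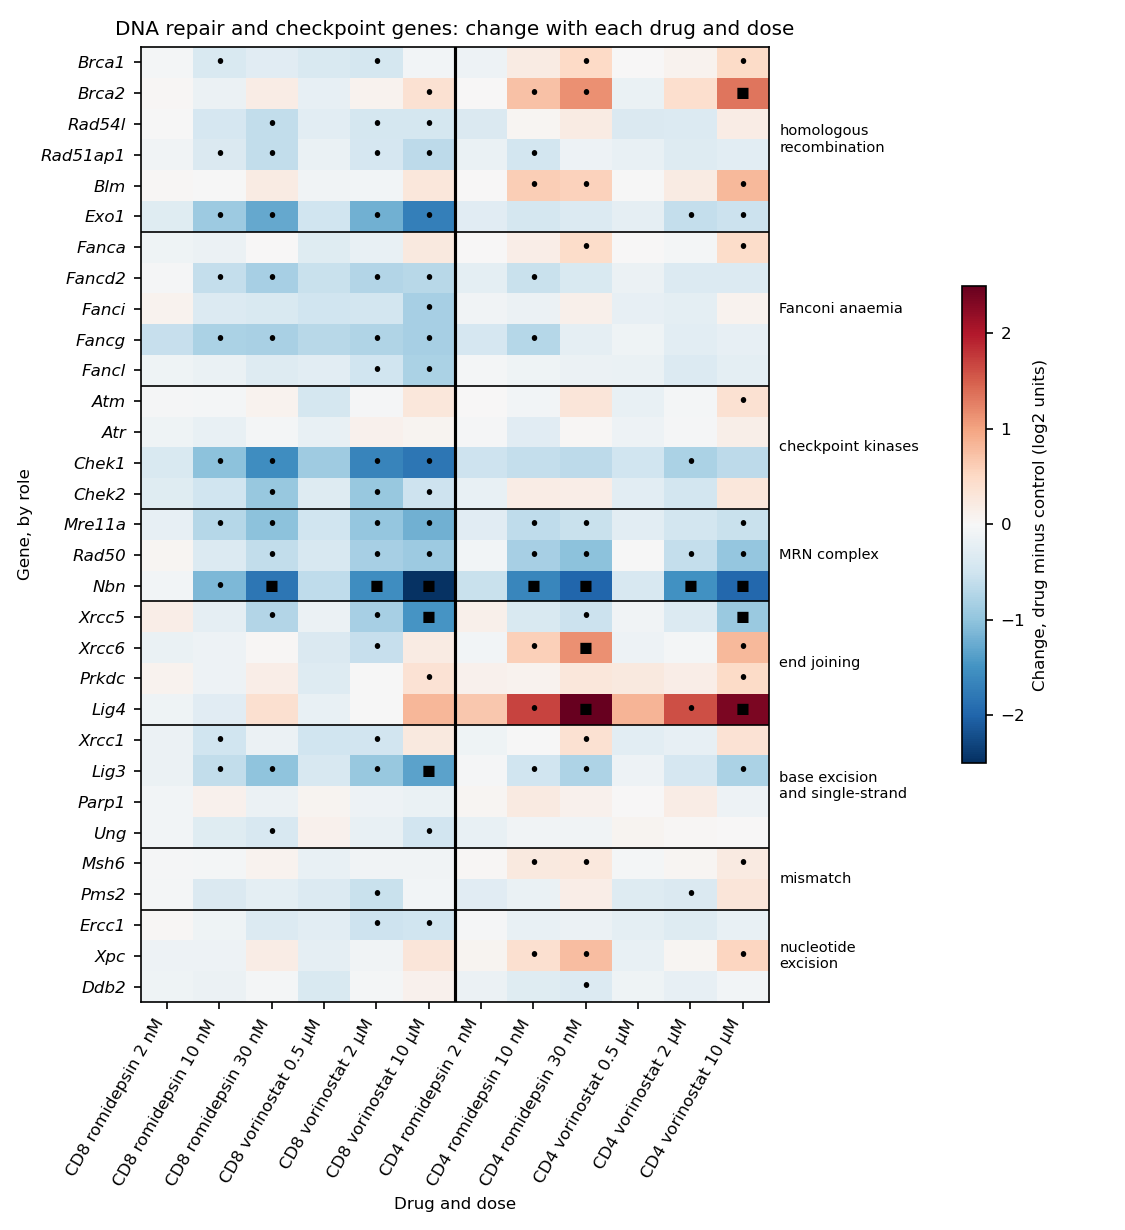
Change of each of the 31 tested genes (rows, by role) with each drug and dose (columns, CD8 cells on the left, CD4 cells on the right), as drug minus control in log2 units. A square marks a change called without the block and a dot one called with the replicate block only; Nbn holds 7 of the squares, and the CD8 side holds blue cells for Exo1, Chek1 and Lig3 down to -1.80.

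The genes of the MRN complex were called lower with the block in both cell types and with both drugs, and Nbn, which encodes nibrin, the subunit that brings the complex to Atm, had the lowest adjusted p of the 31 genes in the fit without the block. In CD8 cells Nbn stood at 8.54 and 8.54 in the control arrays (replicates 1 and 2 throughout), 8.65 and 8.28 at 2 nM, 7.19 and 7.64 at 10 nM and 6.41 and 7.04 at 30 nM romidepsin. Along vorinostat it read 7.82 and 7.99 at 0.5 µM, 6.68 and 7.30 at 2 µM and 5.78 and 6.37 at 10 µM. Every CD8 array at 10 nM romidepsin and above, and at every vorinostat dose, lay below both CD8 control arrays. In CD4 cells it read 8.41 and 8.55 in the controls, 7.60 and 8.27 at 2 nM, 6.74 and 6.98 at 10 nM and 6.16 and 6.83 at 30 nM romidepsin. Along vorinostat the CD4 arrays gave 8.02 and 8.13, 6.52 and 7.40, and 6.28 and 6.77 at 0.5, 2 and 10 µM, again with no overlap with the controls.

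The change of Nbn was -2.46 ± 0.35 log2 units (SE, n = 2 arrays a group) at 10 µM vorinostat and -1.82 ± 0.35 at 30 nM romidepsin in CD8 cells (limma without the block, adjusted p = 0.000161 and 0.00316), and -1.96 ± 0.35 and -1.98 ± 0.35 in CD4 cells (adjusted p = 0.00108 and 0.000772). At 2 µM vorinostat it was -1.55 in CD8 cells and -1.52 in CD4 cells (adjusted p = 0.0232 and 0.043), and at 10 nM romidepsin -1.62 in CD4 cells (adjusted p = 0.00821). In CD8 cells at 10 nM the change of -1.12 was called with the block only (adjusted p = 0.26 without it and 0.00488 with it). Nbn was the one gene called without the block in both cell types and with both drugs. With any 1 of the 4 arrays left out, the calls without the block held at the top dose in CD4 cells and at 10 µM vorinostat in CD8 cells; at 30 nM in CD8 cells the call was lost without replicate 1 of that dose (adjusted p = 0.0636), and at 2 µM in both cell types and at 10 nM in CD4 cells it was lost without any of 3 arrays. With the block all 7 of these calls held. Calls were also made between doses with the block: from 2 to 10 nM romidepsin the change was -1.05 in CD8 and -1.07 in CD4 cells, from 10 to 30 nM -0.69 in CD8 cells, and from 2 to 10 µM vorinostat -0.91 in CD8 cells (adjusted p = 0.0174, 0.00234, 0.0434 and 0.0054). Of these steps the CD4 one held without each of 4 arrays. The CD8 ones held without 2, 1 and 2 of 4 arrays, and both CD8 romidepsin steps were lost with no filter on low values (adjusted p = 0.054 and 0.104).

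Rad50, the coiled-coil ATPase that bridges DNA ends, differed between the cell types before any drug. It stood at 8.28 and 8.89 in CD8 controls and 9.87 and 9.92 in CD4 controls, so the 2 pairs did not overlap. In CD8 cells it read 7.63 and 8.32 at 30 nM romidepsin and 7.21 and 8.14 at 10 µM vorinostat. In CD4 cells it read 8.58 and 9.15 at 30 nM and 8.61 and 9.27 at 10 µM. Replicate 1 of these CD4 doses lay between the CD8 controls and replicate 2 above them. Each stayed above the CD8 control of its own replicate. With the block the changes were -0.61 and -0.91 in CD8 cells (adjusted p = 0.0053 and 0.000178) and -1.03 and -0.96 in CD4 cells (adjusted p = 6.12e-05 and 0.000129), with SE 0.16; without it none was called (adjusted p between 0.12 and 0.5). Of these 4 blocked calls, only that at 30 nM in CD8 cells depended on 1 array (adjusted p = 0.0624 without replicate 1 of the control).

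Mre11a, the nuclease subunit, read 7.58 and 8.13 at 30 nM romidepsin and 7.21 and 8.14 at 10 µM vorinostat in CD8 cells, against 8.81 and 8.96 in CD8 controls, with no overlap. In CD4 cells it read 8.17 and 8.66 at 30 nM and 8.18 and 8.66 at 10 µM, against 8.68 and 9.28 in the controls, so that the lower control array lay just above the higher treated ones. The blocked changes were -1.03 and -1.21 in CD8 cells (adjusted p = 0.000247 and 3.45e-05) and -0.56 and -0.56 in CD4 cells (adjusted p = 0.0119 and 0.0134). Without the block none was called, the nearest being 10 µM vorinostat in CD8 cells (adjusted p = 0.053), and both CD4 calls were lost without replicate 1 of the control or replicate 2 of the drug (adjusted p of up to 0.1). The call at 30 nM in CD4 cells was also lost with the mean of all Mre11a probe sets (adjusted p = 0.235). With the brightest probe sets, all 3 MRN genes were called lower with the block at the top dose of both drugs in both cell types.

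The end-joining genes moved apart from each other. To show the start regions of genes that did and did not move together, the 120 bases before the RefSeq start are printed for 4 genes. These are Xrcc6, Xrcc5 and Lig4 of end joining and Mre11a of the MRN complex. The bases are from assembly GRCm38.p6, 5′ to 3′ on the gene's strand, with capitals where a motif searched for was found on either strand.
Xrcc6, chr15:82016249-82016368, plus strand: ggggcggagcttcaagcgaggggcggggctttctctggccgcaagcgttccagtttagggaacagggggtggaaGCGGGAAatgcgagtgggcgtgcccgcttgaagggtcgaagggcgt
Xrcc5, chr1:72307301-72307420, plus strand: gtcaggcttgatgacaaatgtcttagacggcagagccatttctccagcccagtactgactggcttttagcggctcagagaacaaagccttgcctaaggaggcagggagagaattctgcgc
Lig4, chr8:9977681-9977800, minus strand: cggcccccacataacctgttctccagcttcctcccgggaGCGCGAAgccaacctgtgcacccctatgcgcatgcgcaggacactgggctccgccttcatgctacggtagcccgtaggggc
Mre11a, chr9:14784534-14784653, plus strand: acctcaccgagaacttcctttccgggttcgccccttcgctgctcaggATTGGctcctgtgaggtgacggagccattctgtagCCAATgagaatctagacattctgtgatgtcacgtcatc
The motifs were the E2F-type site in the forms TTCCCGC or its variant TTCGCGC or the further variant TTGGCGC, the CHR element in the forms TTTGAA or its variant TTCGAA, and the CCAAT box, searched on both strands; the reverse strand of TTGGCGC can share its last letters with CCAAT, and no other pair was set to overlap. The capitals mark an E2F-type match in Xrcc6 and in Lig4, whose first of 2 listed starts is shown, and a pair of CCAAT matches in Mre11a. The second Lig4 start had no match to any of these motifs in the 250 bases searched. Xrcc5 has no match in the bases shown but a CCAAT match farther out, at -169 to -165 from its start. Over the 250 bases before the start, 7 of 27 promoters of 25 of the 32 genes held an E2F-type match, 25.9% against 6.69% of all 32851 mouse promoters in the table. CCAAT was found in 13 of 27, 48.1% against 33.8%, and CHR in 2 of 27, 7.41% against 17.1%. The promoters with an E2F-type match belong to Bard1, Fancg, Chek2, Brca2, Ercc1, Lig4 and Xrcc6 and differed among themselves in direction and in calls. A match is a run of letters and not a shown binding site. The promoters of Nbn, Rad50, Exo1, Fancd2, Xpc, Ddb2 and Prkdc were not analysed here.

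Lig4, the ligase of end joining, rose in CD4 cells. It stood at 4.61 and 6.21 in CD4 controls, 5.53 and 6.64 at 2 nM, 6.93 and 7.26 at 10 nM and 7.88 and 8.07 at 30 nM romidepsin. Along vorinostat it read 5.82 and 6.69 at 0.5 µM, 6.49 and 7.56 at 2 µM and 7.23 and 8.30 at 10 µM. From 10 nM and from 2 µM upward every CD4 array lay above both controls. The change was 2.56 ± 0.73 log2 units at 30 nM (limma without the block, adjusted p = 0.0197) and 2.36 ± 0.73 at 10 µM (adjusted p = 0.0348), the largest rises among the 31 genes in CD4 cells. Both calls were lost in that fit without any of 3 of the 4 arrays, with adjusted p of up to 0.222 at 30 nM and 0.313 at 10 µM, and the change fell to 1.76 and 1.55 without replicate 1 of the control, whose value of 4.61 is the lowest of the 28 arrays for this gene. With the block both held without each array in turn (adjusted p = 0.000139 and 0.000319 over all arrays).

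In CD8 cells the 2 replicates of Lig4 went opposite ways. The arrays read 7.30 and 7.04 at 30 nM romidepsin and 7.58 and 7.64 at 10 µM vorinostat, against 5.69 and 7.85 in CD8 controls. The within-replicate changes were 1.60 and -0.81 at 30 nM and 1.88 and -0.21 at 10 µM, so neither mean change, 0.40 and 0.84, was called in either fit (with the block, adjusted p = 0.479 and 0.11).

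The 2 Ku genes moved in opposite directions in CD4 cells. Xrcc6 (Ku70) read 9.76 and 9.73 at 30 nM romidepsin and 9.44 and 9.39 at 10 µM vorinostat in CD4 cells, against 8.39 and 8.81 in the controls, with no overlap. Its change was 1.14 ± 0.32 at 30 nM (adjusted p = 0.0166 without the block) and 0.81 at 10 µM (adjusted p = 0.0913 without and 0.000414 with the block). The first call was lost in the fit without the block when any of 3 arrays was left out (adjusted p of up to 0.148), and both held with the block. In CD8 cells Xrcc6 read 9.12 and 9.28 at 30 nM and 9.17 and 9.57 at 10 µM, against 8.80 and 9.54 in the controls, and its mean changes of 0.03 and 0.20 were not called. It did dip at 2 µM vorinostat in CD8 cells, to 8.22 and 8.97, a change of -0.57 called with the block (adjusted p = 0.0106) and lost without replicate 1 of that dose or replicate 2 of the control.

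Xrcc5 (Ku80) fell. In CD8 cells it read 6.63 and 7.29 at 10 µM vorinostat and 7.38 and 8.003 at 30 nM romidepsin, against 8.52 and 8.35 in the controls. In CD4 cells the arrays gave 6.43 and 6.78 at 10 µM and 7.05 and 6.93 at 30 nM, against 7.498 and 7.57 in the controls. Treated and control arrays did not overlap in either cell type. The change at 10 µM was -1.48 ± 0.24 in CD8 cells and -0.93 ± 0.24 in CD4 cells (limma without the block, adjusted p = 0.000489 and 0.0133). The CD8 call held without each of the 4 arrays, while the CD4 call was lost without any of 3 of them (adjusted p of up to 0.136) and held with the block. At 30 nM the changes of -0.74 in CD8 and -0.55 in CD4 cells were called with the block only (adjusted p = 0.00713 and 0.0298), the first lost without replicate 1 of either group and the second without any of 3 arrays. Xrcc5 was also the one gene called between the untreated cell types without the block, 0.90 ± 0.24 higher in CD8 controls than in CD4 controls (adjusted p = 0.0354), a call that was lost without each of the 4 control arrays in that fit and without replicate 1 of the CD8 control with the block (adjusted p = 0.0563).

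Prkdc, the catalytic subunit of DNA-PK, rose by less. It read 7.996 and 8.45 at 10 µM vorinostat in CD8 cells, against CD8 controls at 7.47 and 8.27. In CD4 cells it read 7.77 and 7.98, against CD4 controls at 7.17 and 7.60. The changes of 0.35 and 0.49 were called with the block (adjusted p = 0.0421 and 0.00841), and each was lost without 2 or 3 single arrays.

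**Figure D2:**
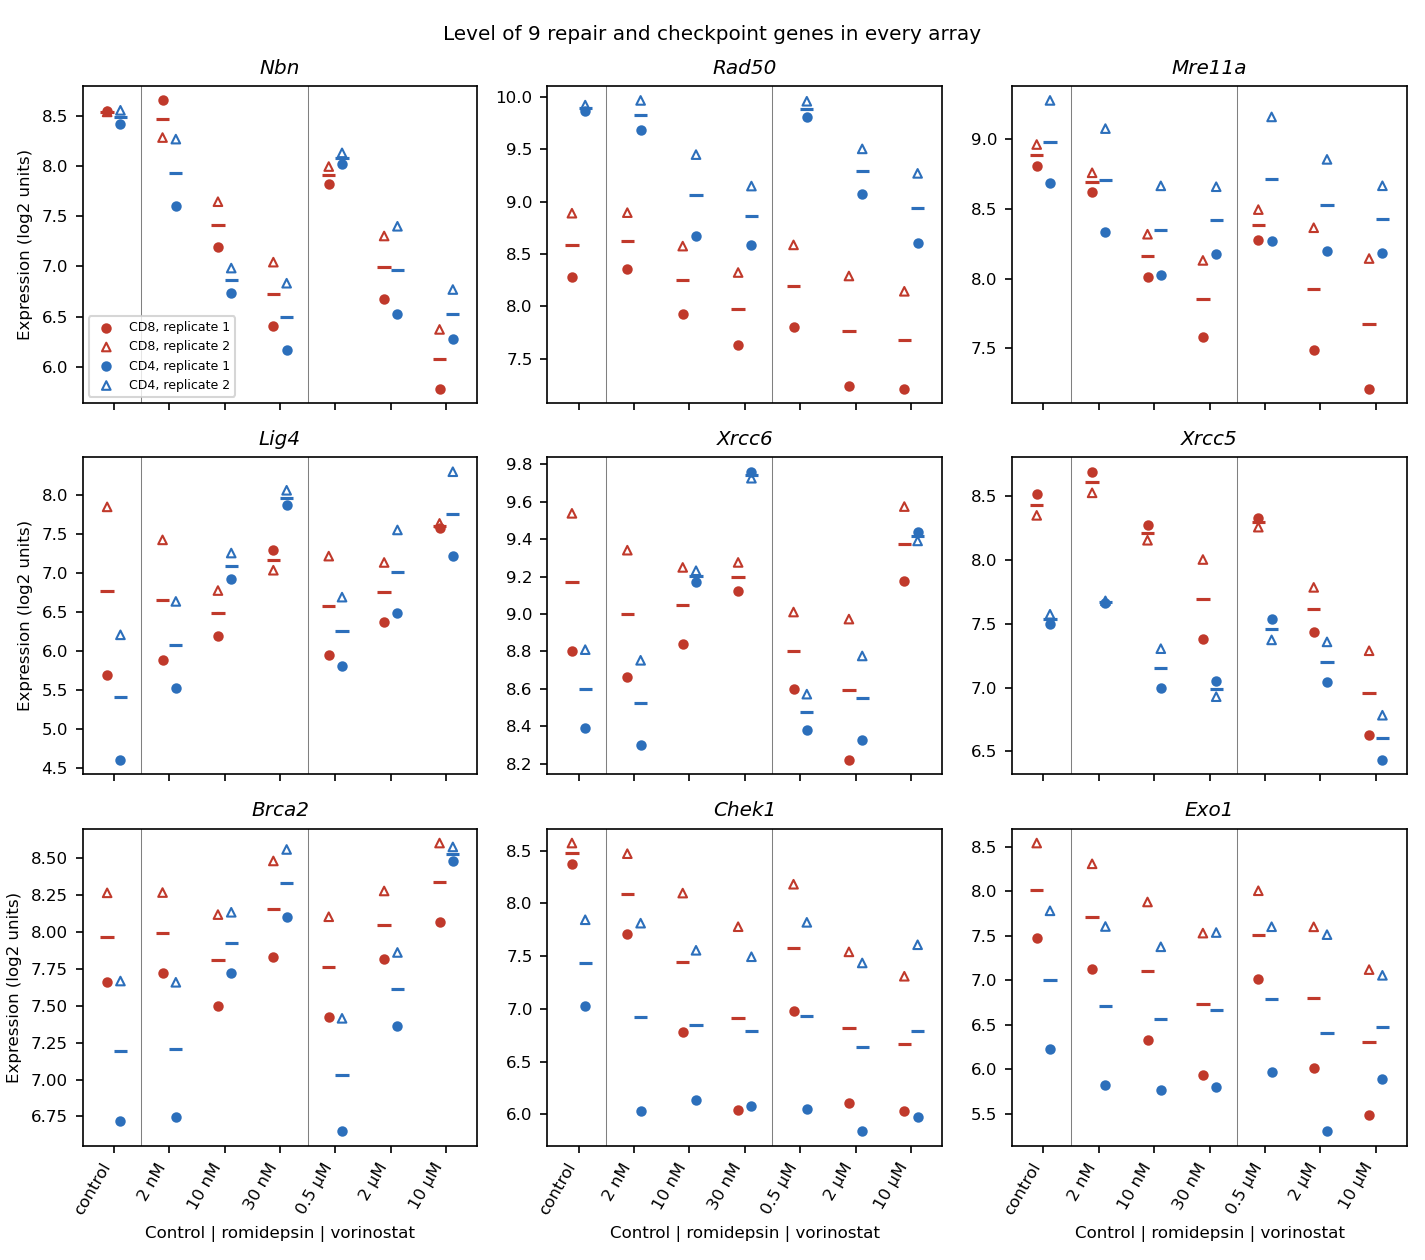
Log2 value of 9 genes in each array along the doses of romidepsin and vorinostat, with the control at the left of each series. CD8 cells are red and stand left of CD4 cells in blue, circles are replicate 1 and triangles replicate 2, and bars are group means. Nbn drops with dose in both colours, while Lig4 climbs in both blue replicates and the red Lig4 replicates part ways. Blue Xrcc6 lies above its control of the same replicate only at 10 and 30 nM romidepsin and 10 µM vorinostat.

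Of the 6 tested homologous recombination genes, 3 (Exo1, Rad51ap1 and Rad54l) were called lower with the block at both top doses in CD8 cells, and Brca2 was called higher at 10 µM. Among all genes 32.4% were lower at 10 µM and 24.6% at 30 nM in CD8 cells, and 31.6% were higher at 10 µM. In CD4 cells 3 of the 6 were called higher at each top dose (31.9% of all genes at 10 µM and 35.4% at 30 nM) and Exo1 lower at 10 µM (29.3%). Exo1, the exonuclease that extends trimmed ends, had the largest falls. It read 7.48 and 8.54 in CD8 controls, 7.12 and 8.31 at 2 nM, 6.33 and 7.88 at 10 nM and 5.94 and 7.53 at 30 nM romidepsin. Along vorinostat it read 7.02 and 8.01 at 0.5 µM, 6.01 and 7.60 at 2 µM and 5.49 and 7.12 at 10 µM. The replicates sat about 1 unit or more apart, and at 30 nM replicate 2 lay level with replicate 1 of the control, but each replicate lay below its own control at every dose. The changes at 10 µM and 30 nM were -1.71 ± 0.20 and -1.28 ± 0.20 with the block (adjusted p = 4.57e-06 and 0.000117) and ± 1.04 without it (adjusted p = 0.29 and 0.58). In CD4 cells Exo1 read 5.89 and 7.06 at 10 µM and 5.80 and 7.54 at 30 nM, against 6.23 and 7.78 in the controls; the change at 10 µM, -0.53, was called with the block (adjusted p = 0.0309) and lost without any of 3 arrays, and that at 30 nM, -0.34, was not called (adjusted p = 0.151).

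Brca2, which loads the recombinase onto single-stranded DNA, rose in CD4 cells. It read 6.72 and 7.67 in CD4 controls, 6.75 and 7.66 at 2 nM, 7.72 and 8.13 at 10 nM and 8.10 and 8.56 at 30 nM romidepsin. Along vorinostat the CD4 arrays gave 6.65 and 7.41, 7.36 and 7.86, and 8.48 and 8.58 at 0.5, 2 and 10 µM. At the top dose of each drug every CD4 array lay above both controls. The change was 1.33 ± 0.43 at 10 µM (adjusted p = 0.0408 without the block) and 1.14 at 30 nM (adjusted p = 0.0731 without and 1.92e-05 with the block). The call at 10 µM in the fit without the block was lost without any of 3 arrays, down to a change of 0.86 without replicate 1 of the control (adjusted p = 0.343), and with the block both held. In CD8 cells Brca2 read 8.07 and 8.60 at 10 µM and 7.83 and 8.48 at 30 nM, against 7.66 and 8.27 in the controls; the change of 0.37 at 10 µM was called with the block (adjusted p = 0.0487) and lost without each of the 4 arrays.

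Blm, a helicase that unwinds recombination intermediates, read 8.65 and 9.31 at 10 µM vorinostat and 8.39 and 9.12 at 30 nM romidepsin in CD4 cells, against 7.72 and 8.63 in the controls. It rose by 0.80 and 0.58 with the block (adjusted p = 7.21e-05 and 0.000985), calls that held without each array. In CD8 cells its changes of 0.28 and 0.20 were not called. Brca1 rose in CD4 cells by 0.48 at 10 µM and 0.50 at 30 nM with the block (adjusted p = 0.00364 and 0.00263), and its changes of -0.08 and -0.29 in CD8 cells were not. The call at 10 µM was lost when the mean of all Brca1 probe sets was used (adjusted p = 0.376): a dimmer second probe set changed by -0.19 there. It was also lost without replicate 1 of that dose (adjusted p = 0.0737). In CD8 cells the dimmer Brca1 probe set, of mean 4.53, changed by -0.76 at 10 µM and -0.70 at 30 nM. In CD4 cells at 30 nM it changed by 0.56. That probe set was not tested singly. Rad51ap1, a partner of the recombinase, fell in CD8 cells by 0.66 at 10 µM and 0.62 at 30 nM, and Rad54l, a motor protein of strand exchange, by 0.45 and 0.61, all called with the block only. The Rad51ap1 calls held without each array. The Rad54l call at 10 µM was lost without replicate 1 of the drug or of the control (adjusted p of up to 0.134), and that at 30 nM without replicate 1 of the drug, where the change was -0.38 (adjusted p = 0.08). None of the 6 tested genes of this role was called without the block in CD8 cells.

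Of the 5 Fanconi genes, 4 fell with the block at 10 µM vorinostat in CD8 cells, where 32.4% of all genes fell, and 2 at 30 nM romidepsin, where 24.6% did. In CD4 cells 1 of 5 rose at each top dose (31.9% of all genes at 10 µM and 35.4% at 30 nM) and none was called lower (29.3% and 28.3%). Fancd2 and Fanci form the pair that is ubiquitylated at crosslinks. Fancd2 read 5.40 and 6.16 at 10 µM and 5.03 and 6.27 at 30 nM in CD8 cells, against 6.17 and 6.80 in the controls. Its changes were -0.70 and -0.83 with the block (adjusted p = 0.00263 and 0.00106) and were called in neither CD4 contrast (-0.34 and -0.37). Fanci fell by 0.83 at 10 µM in CD8 cells (adjusted p = 0.000777). Fancl, the ubiquitin ligase of the pathway, read 7.09 and 7.83 at 10 µM in CD8 cells, against 8.13 and 8.37 in the controls, a change of -0.79 (adjusted p = 0.000551).

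Fancg, a core complex subunit, was near the detection level. It read 4.41 and 5.48 at 10 µM and 4.41 and 5.54 at 30 nM in CD8 cells, against 5.49 and 6.07 in the controls, and changed by -0.84 and -0.81 with the block (adjusted p = 0.00635 and 0.0103). Both calls were lost without replicate 1 of the CD8 control, the second also without replicate 1 of the drug, and replicate 1 gave the larger part of the change. Fanca was the member that rose in CD4 cells, by 0.45 at both top doses (adjusted p = 0.0101 at 10 µM and 0.00964 at 30 nM), each call lost without replicate 1 of the control, and that at 10 µM also without replicate 1 of the drug.

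Among the checkpoint kinases, Chek1 and Chek2 fell in CD8 cells. Chek1, the kinase that acts below Atr, read 8.37 and 8.57 in CD8 controls, 7.71 and 8.47 at 2 nM, 6.78 and 8.10 at 10 nM and 6.04 and 7.78 at 30 nM romidepsin. Along vorinostat it read 6.98 and 8.18, 6.11 and 7.54, and 6.03 and 7.31 at 0.5, 2 and 10 µM. Every drugged CD8 array at 10 nM and 0.5 µM or above lay below both controls. The change was -1.80 ± 0.28 at 10 µM and -1.56 ± 0.28 at 30 nM with the block (adjusted p = 5.22e-05 and 0.000318), against an SE of 0.92 without it (adjusted p = 0.2 and 0.37), and the fall was larger within replicate 1 than within replicate 2. Its 2 dimmer probe sets changed by -1.22 and -1.32 at 10 µM. In CD4 cells Chek1 read 5.97 and 7.61 at 10 µM, against 7.03 and 7.84 in the controls, and its changes of -0.64 there and -0.65 at 30 nM were not called (adjusted p = 0.0564 and 0.0539 with the block). At 2 µM vorinostat its change in CD4 cells, -0.80, was called with the block (adjusted p = 0.0441), a call kept in 1 of the 4 fits that leave out an array and lost with no filter or equal medians. The CD8 minus CD4 difference of Chek1 was called at no dose.

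Chek2, the kinase below Atm, read 5.30 and 6.04 at 30 nM romidepsin and 6.01 and 6.18 at 10 µM vorinostat in CD8 cells, against 6.56 and 6.67 in the controls, with no overlap. The changes were -0.94 and -0.53 with the block (adjusted p = 0.00035 and 0.0141), the second lost without replicate 2 of the drug or replicate 1 of the control. In CD4 cells Chek2 read 7.13 and 7.40 at 30 nM and 7.33 and 7.43 at 10 µM, against 6.92 and 7.26, and was not called. Atm changed by 0.38 at 10 µM in CD4 cells (adjusted p = 0.027 with the block, lost without replicate 2 of the drug or replicate 1 of the control), and otherwise neither Atm nor Atr was called against its control in either fit.

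Genes of dividing cells were lower as well in these cultures. Of 19 tested genes on a list of S phase and mitosis genes, 17 fell with the block at 10 µM vorinostat and 15 at 30 nM romidepsin in CD8 cells, and 14 and 14 in CD4 cells, against 32.4%, 24.6%, 29.3% and 28.3% of all genes. None rose in CD8 cells and 1 rose at each dose in CD4 cells. The medians were -1.16, -1.03, -0.67 and -0.77. Cdk1, the mitotic kinase, changed by -2.65 and -1.42 in CD8 cells and by -1.85 and -1.42 in CD4 cells. Rrm2, which makes deoxynucleotides, changed by -2.19 and -1.53 in CD8 cells and by -1.88 and -1.70 in CD4 cells, and Mki67, the marker of cycling cells, by -2.09 and -1.59 and by -1.65 and -1.92. The 6 homologous recombination genes in CD4 cells had medians of 0.33 at 10 µM and 0.35 at 30 nM while this list lay below 0. The part of fewer dividing cells in the falls of Exo1, Chek1, Fancd2 and Rad51ap1 was not tested.

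**Figure D3:**
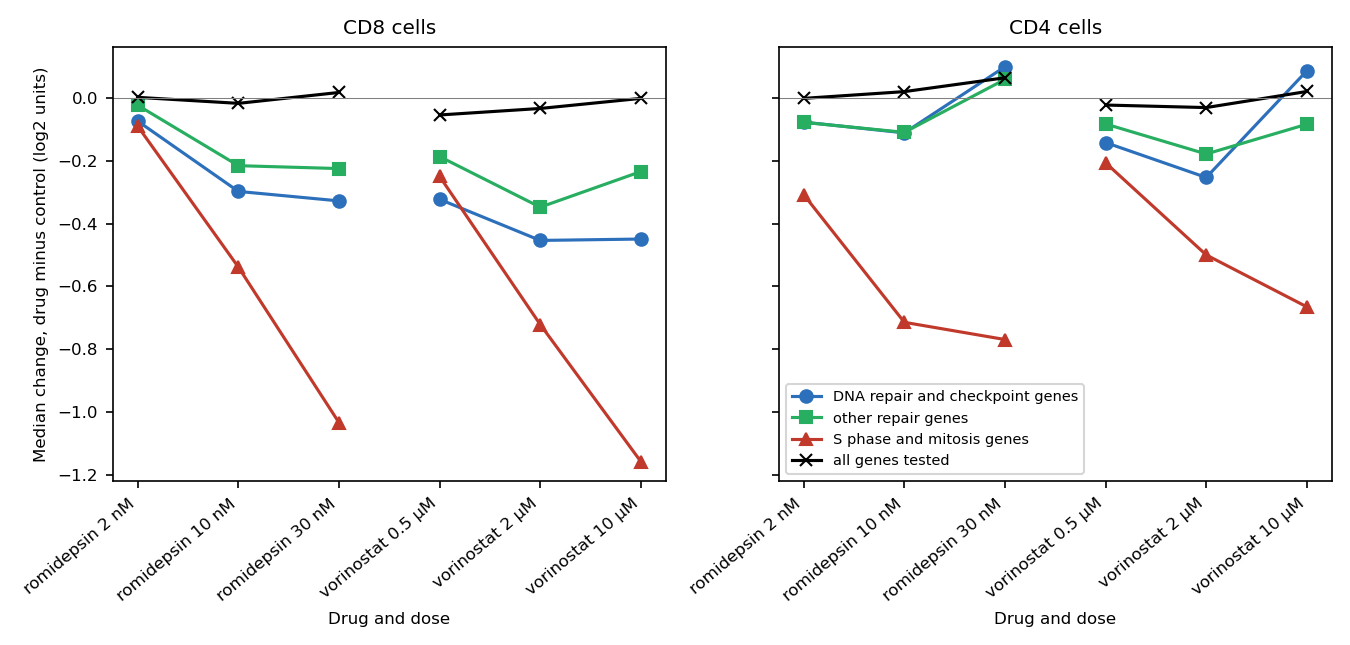
Median change of the 31 repair and checkpoint genes, of the other repair genes, of the S phase and mitosis genes and of all genes tested along the doses of each drug, as drug minus control in log2 units, for CD8 cells on the left and CD4 cells on the right. The S phase and mitosis genes drop with dose in both cell types, to -1.16 in CD8 cells, and the repair genes stay nearer 0, between -0.45 and -0.30 in CD8 cells from 10 nM and 0.5 µM and close to 0.1 at the top doses in CD4 cells.

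Lig3, the ligase of single-strand break repair, fell in both cell types. It read 6.80 and 7.15 at 10 µM vorinostat and 6.99 and 7.61 at 30 nM romidepsin in CD8 cells, against CD8 controls at 8.21 and 8.39. In CD4 cells it read 7.002 and 7.44 and then 7.03 and 7.42, against CD4 controls at 7.88 and 8.13. No treated array reached its controls. The change at 10 µM in CD8 cells was -1.33 ± 0.36 (limma without the block, adjusted p = 0.014), a call lost without any of 3 arrays (adjusted p of up to 0.114). With the block it held, as did -1.003 at 30 nM in CD8 cells and -0.78 at both top doses in CD4 cells (adjusted p = 6.09e-06, 0.000142, 0.00066 and 0.000656). With the mean of all Lig3 probe sets the change in the fit without the block was -0.58 and not called (adjusted p = 0.44); the dimmer probe set over the detection level changed by -0.78.

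Xrcc1, the scaffold that binds Lig3, did not follow it. It read 7.30 and 8.44 at 10 µM in CD8 cells, against CD8 controls at 7.21 and 8.05. In CD4 cells it read 7.33 and 8.07 at 30 nM, against CD4 controls at 6.76 and 7.87. The change in CD8 cells, 0.24, was not called, and that in CD4 cells, 0.39, was called with the block (adjusted p = 0.0434) but lost without any of 3 arrays. Ung, which removes uracil from DNA, fell in CD8 cells by 0.47 at 10 µM and 0.39 at 30 nM (adjusted p = 0.0116 and 0.0376 with the block), both lost without replicate 1 of the control or of the drug, and the second also without replicate 2 of the drug. Parp1, which senses nicks, lay between 9.54 and 10.5 on all 28 arrays and was called in no drug contrast. That brightest probe set changed by -0.16 at 10 µM and -0.14 at 30 nM in CD8 cells. There 2 dimmer ones (means 8.28 and 8.19) changed by -0.61 and -0.58 at 10 µM and by -0.36 and -0.46 at 30 nM. The dimmest (mean 4.47) changed by 0.16 and -0.12. The dimmer Parp1 probe sets were not tested singly.

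Of the mismatch repair genes, Msh6, which recognises mispairs, lay between 10.1 and 10.8 over the 28 arrays, the narrowest range among the 31 genes. It read 10.65 and 10.60 at 10 µM in CD4 cells, against 10.46 and 10.34 in the controls, and the rises of 0.22 there and 0.26 at 30 nM, called with the block (adjusted p = 0.0354 and 0.0176), were lost without each of the 4 arrays. Pms2, the endonuclease partner in mismatch repair, varied more, from 6.38 to 8.51. It fell at 2 µM vorinostat in CD8 cells by 0.56 with the block (adjusted p = 0.00301), a call that held without each of 4 arrays, and its changes at the top doses, between -0.24 and 0.30, were not called.

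In nucleotide excision repair, Xpc, the damage sensor, rose in CD4 cells. It read 5.38 and 6.53 at 30 nM romidepsin and 5.04 and 6.42 at 10 µM vorinostat in CD4 cells, against 4.76 and 5.62 in the controls. The changes of 0.77 and 0.54 were called with the block (adjusted p = 0.000608 and 0.00776), the second lost without replicate 2 of either group. In CD8 cells its changes of 0.18 and 0.30 were not called. Ercc1, part of the nuclease that cuts beside the lesion, fell by 0.51 at 10 µM in CD8 cells (adjusted p = 0.00758 with the block), and Ddb2, which finds ultraviolet damage in chromatin, by 0.34 at 30 nM in CD4 cells (adjusted p = 0.049), each lost with at least 2 of the 4 single arrays left out. The Ercc1 probe sets differed in CD4 cells, where the one used changed by -0.18 at 10 µM and -0.14 at 30 nM. Another, of mean 8.19 against 8.34, changed by -0.69 and -0.45 there and by -0.51 and -0.28 in CD8 cells.

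Before drug, 15 of 31 genes were called higher in CD8 than in CD4 controls with the block, against 21.2% of all genes, and 3 lower, against 16.3% (37.5% of all genes in either direction). Of these 18 calls, those of Brca2, Rad54l, Exo1, Atr and Rad50 held without each of the 4 control arrays and the other 13 did not. The blocked fit leaves out of its error the spread that all arrays of a cell type and replicate share. Without the block only Xrcc5 was called (6.22% of all genes). Lig4 had a difference of 1.36 log2 units, Chek1 of 1.04, Exo1 of 1.01 and Brca2 of 0.77 (adjusted p = 0.0245, 0.0087, 0.00109 and 0.00131 with the block), and 26 of 31 differences lay above 0. The share of all genes above 0 is not given here, so that count alone does not set the 31 genes apart. The Exo1 and Brca2 calls held without each control array and the Lig4 and Chek1 calls did not, and for Exo1 the within-replicate differences were 1.25 and 0.76. The genes lower in CD8 controls were Rad50, by 1.31 (adjusted p = 1.79e-05, held without each array), Ddb2, by 0.49, and Chek2, by 0.47 (adjusted p = 0.0145 and 0.0396), both the Ddb2 and the Chek2 call kept in 1 of the 4 fits that leave out an array.

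The differences in response between the cell types that were called, all with the block only, lay in 1 direction. The difference of the 2 changes, CD8 minus CD4, was called with the block for 7 genes at 30 nM romidepsin, 4 at 10 µM vorinostat and 2 at 10 nM romidepsin, all negative (9.13%, 5.32% and 4.82% of all genes were called lower, and 17.6%, 10.7% and 8.4% in either direction). No gene was called at 2 nM, 0.5 µM or 2 µM with the block by limma (0.0101%, 0.0203% and 1.45% of all genes), and none at any dose without it (0.0709% of all genes at 10 nM, 1.0% at 30 nM and 0.577% at 10 µM); at an unadjusted p under 0.05 the fit without the block gave 2 genes at 30 nM and 0 at 10 µM. At 30 nM 28 of 31 differences lay below 0, with a median of -0.45 against -0.07 over all genes, and at 10 µM 29 of 31, with a median of -0.50 against -0.06. The share of all genes below 0 is not given here, so these counts alone do not set the 31 genes apart. Each difference uses both pairs of controls.

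At 30 nM the called genes were Xrcc6 (-1.11 ± 0.22), Chek2 (-1.12 ± 0.24), Brca2 (-0.95 ± 0.22), Brca1 (-0.79 ± 0.17), Rad54l (-0.81 ± 0.21), Exo1 (-0.94 ± 0.28) and Lig4 (-2.17 ± 0.63). For Xrcc6 the within-replicate differences were -1.05 and -1.18, for Chek2 -1.47 and -0.76 and for Brca1 -0.86 and -0.72. These 3 calls held without each of the 8 arrays in turn (adjusted p = 0.00446, 0.00648 and 0.0076 over all arrays), and the other 4 did not. At 10 µM the called genes were Exo1 (-1.18 ± 0.28), Brca2 (-0.96 ± 0.22), Fanci (-0.92 ± 0.25) and Chek2 (-0.81 ± 0.24), and at 10 nM Brca2 (-0.89 ± 0.22) and Blm (-0.63 ± 0.18), each lost without at least 3 of the 8 single arrays. No gene of the MRN complex, of base excision or of nucleotide excision repair was called in such a difference.

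**Figure D4:**
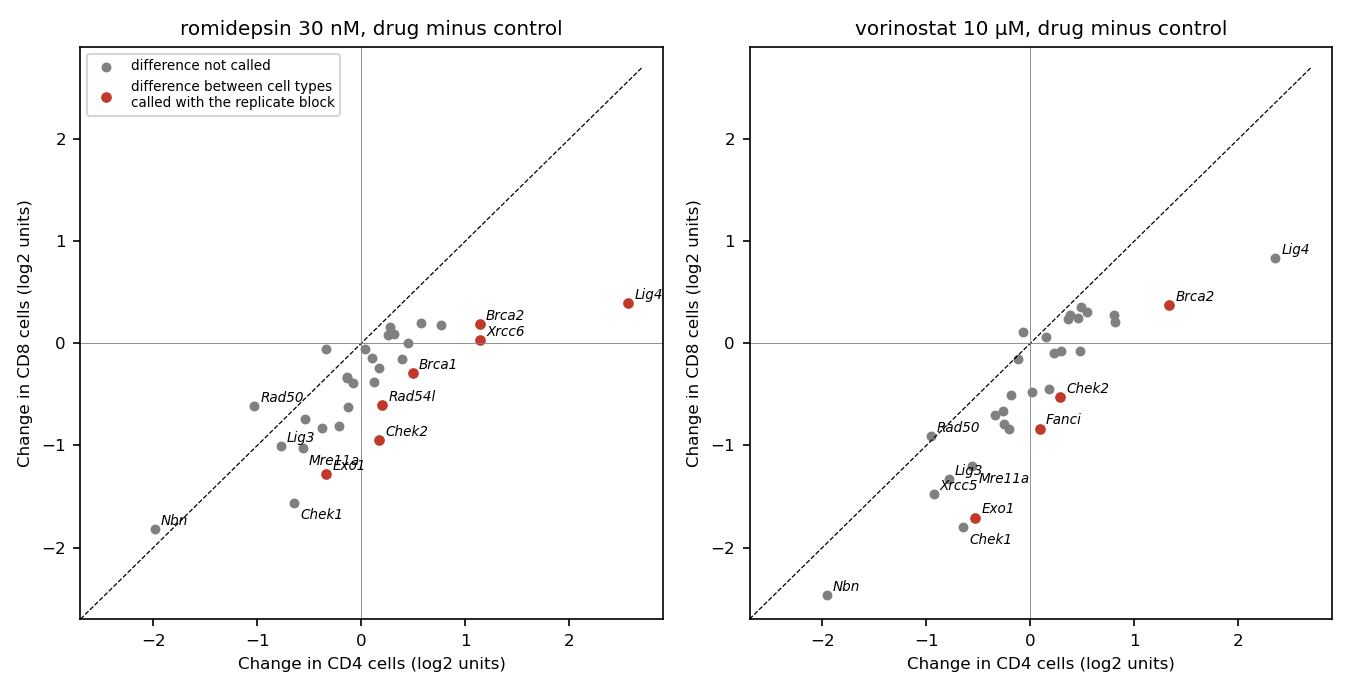
Change in CD8 cells plotted against change in CD4 cells for the 31 genes at the top dose of each drug, in log2 units, drug minus control. Red points are genes whose CD8 minus CD4 difference was called with the block. The dashed line marks equal changes. Below it, with the lower change in CD8 cells, lie 28 of 31 genes at 30 nM romidepsin and 29 of 31 at 10 µM vorinostat. The share of all genes below it is not given.

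Between neighbouring doses, the step from 2 to 10 µM vorinostat held the most calls, among the 31 genes as among all genes tested. In either direction 12 of 31 genes were called in CD4 cells and 8 in CD8 cells. Both were smaller shares than among all genes (43.7% and 41.4%). More of the calls were rises than falls, which also held for all genes. With the block 11 genes were higher at 10 than at 2 µM in CD4 cells and 1 lower (25.9% and 17.8% of all genes), and 6 higher and 2 lower in CD8 cells (22.8% and 18.6%). Xrcc6 rose by 0.86 in CD4 and 0.78 in CD8 cells over this step (adjusted p = 0.0007 and 0.00152), Pms2 by 0.66 and 0.49 and Xrcc1 by 0.55 and 0.73. Of the calls over this step 5 of 12 in CD4 and 2 of 8 in CD8 cells held without each array. From 0.5 to 2 µM 5 genes fell in CD8 cells (5.2% of all genes lower), namely Nbn, Exo1, Xrcc5, Chek2 and Lig3. All 5 calls were lost with no filter on low values. That of Xrcc5 was also lost without each of the 4 arrays, and the others were kept in 1 of the 4 fits that leave out an array. Xrcc1 and Pms2 were called lower than the control at 2 µM in CD8 cells, and at 10 µM differed from it by 0.24 and -0.08, neither called. From 2 to 10 nM romidepsin 5 genes rose and 3 fell in CD4 cells (22.2% and 17.8%), and 1, Nbn, fell in CD8 cells (1.97%). From 10 to 30 nM 1 gene, Xrcc6, rose in CD4 cells (6.43%) and 1, Nbn, fell in CD8 cells (7.99%), and from 0.5 to 2 µM in CD4 cells 1 rose and 2 fell (2.83% and 2.42%). Without the block no step was called by limma for these genes (between 0.0101% and 5.42% of all genes), with between 0 and 5 of 31 genes at an unadjusted p under 0.05.

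Beyond the 32 genes, 80 other repair genes were tested. With the block 14 rose and 33 fell at 10 µM vorinostat and 8 rose and 31 fell at 30 nM romidepsin in CD8 cells, and 19 rose and 25 fell and 20 rose and 19 fell in CD4 cells. As shares the falls were 41.2% and 38.8% in CD8 cells, against 32.4% and 24.6% of all genes, and 31.2% and 23.8% in CD4 cells, against 29.3% and 28.3%. The rises were 17.5% and 10.0% in CD8 cells, against 31.6% and 27.8% of all genes, and 23.8% and 25.0% in CD4 cells, against 31.9% and 35.4%. Those named here were called with the block in all 4 contrasts and had the largest mean change. Mdc1, the scaffold at marked breaks, changed by 1.26 and 0.81 in CD8 and 1.55 and 1.64 in CD4 cells, and Ercc5, an excision nuclease, by 1.01, 1.13, 1.19 and 1.35, both called in all 4 contrasts also without the block. Rad17, the clamp loader of the Atr checkpoint, changed by 1.02 and 0.60 in CD8 and 1.22 and 1.51 in CD4 cells, Rad51c by 0.64, 0.47, 0.99 and 1.26, and Polb, the polymerase of base excision, by 0.55, 0.47, 0.80 and 0.95.

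Of those that fell in all 4, Neil1, a glycosylase for oxidised bases, changed by -2.80 and -1.73 in CD8 and -2.30 and -2.38 in CD4 cells. Neil3 changed by -1.75, -1.13, -1.17 and -1.26, Fancb by -1.49, -1.46, -1.07 and -0.92, Brcc3, a deubiquitylase of the Brca1 complex, by -1.14, -0.74, -1.17 and -1.08, and Xrcc4, the partner that stabilises Lig4, by -0.99, -0.72, -1.39 and -0.99. In CD4 cells Xrcc4 fell where Lig4 rose. Brcc3 was called in all 4 contrasts without the block, Xrcc4 in 3 (adjusted p = 0.15 at 30 nM in CD8 cells), Neil1 in 3 (adjusted p = 0.186 in the same contrast), Neil3 in 1 and Fancb in none.

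Of 11 tested p53 target genes, 1 rose and 5 fell at the top dose of each drug in CD8 cells, and 1 rose and 6 fell in CD4 cells, with the block. The falls were 45.5% of the list in CD8 cells at both doses, against 32.4% of all genes at 10 µM and 24.6% at 30 nM. In CD4 cells they were 54.5%, against 29.3% and 28.3%. The rises, 9.09% in each contrast, stood against 31.6% and 27.8% of all genes in CD8 and 31.9% and 35.4% in CD4 cells. Fas, the death receptor, rose by 0.84 at 10 µM and 1.08 at 30 nM in CD8 cells and by 1.54 and 1.10 in CD4 cells (adjusted p of at most 0.0264 without the block). Phlda3 changed by -2.33 and -1.20 in CD8 and by -3.26 and -2.38 in CD4 cells, and Ccng1 by -0.60, -0.48, -0.48 and -0.53.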

How the data were processed

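Gene expression was measured on 28 arrays, 2 for each of 14 groups, whose titles give cell type, drug, dose and replicate. The authors deposited log2-scale intensities made with GCRMA per the submitters' processing notes, with no version; the base of the logarithm is not given in the sources used here, and log2 was read from the range of the values. Array medians lay between 2.31 and 2.40, and the number of arrays limits the precision. Of 45101 probe sets, 34945 named 1 gene, 932 several and 9211 none, by the platform annotation with symbols updated through RefSeq. The brightest probe set stood for each of 18193 genes, and 9871 genes above the mode of all values, 2.27, plus 2 units in at least 2 arrays were tested.

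Changes were fitted with limma 3.58.1 in R 4.3.3, two-sided, with Benjamini-Hochberg adjustment over all genes tested and a threshold of 0.05, without the block (14 residual degrees of freedom) and with the replicate number within cell type as a block (12). The replicate numbers come from the titles. Within each cell type the deviations of same-numbered arrays correlated in all 21 pairs of groups (r from 0.762 to 0.940 in CD4 and from 0.768 to 0.958 in CD8 cells), and the lowest value was 2.2684 in replicate 1 and 2.2545 in replicate 2, so the lowest value differs by replicate. The script was tested on simulated data with changes of known size.

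The members, their roles and the other gene lists were chosen with earlier results of these data known. Any member may be named, with full values for those called without the block in a drug contrast and for up to 3 of each role with the largest mean change over the 4 top-dose contrasts; from other lists, genes called with the block in all 4 and ranked by that mean. Alternatives were quantile normalization, equal medians, no filter, the mean of probe sets and leaving out each array; the blocked fit under these settings was added after seeing the data. Bard1 was left out of tests by the filter.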

Additional observations from a re-analysis of the deposited data

Results flagged for a closer look

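The following differences between the cell types, the change in CD8 cells minus the change in CD4 cells at the same drug and dose, passed the threshold with the replicate block (limma, adjusted over all genes tested) and in no case without it. At 30 nM romidepsin they were -2.17 for Lig4 (adjusted p = 0.0278), -1.12 for Chek2 (0.00648), -1.11 for Xrcc6 (0.00446), -0.95 for Brca2 (0.0102), -0.94 for Exo1 (0.0329), -0.81 for Rad54l (0.0153) and -0.79 for Brca1 (0.0076). At 10 µM vorinostat they were -1.18 for Exo1 (0.0164), -0.96 for Brca2 (0.0132), -0.92 for Fanci (0.0293) and -0.81 for Chek2 (0.044), and at 10 nM romidepsin -0.89 for Brca2 (0.0264) and -0.63 for Blm (0.0426). In all 13 both replicates gave a negative difference.

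For Lig4 the difference at 30 nM was -1.67 within replicate 1 and -2.67 within replicate 2, although replicate 1 rose in both cell types and replicate 2 moved in opposite directions. Without single arrays it ranged from -2.92 to -1.42, and the call was lost without 4 of 8. The 3 calls at 30 nM that held without each of 8 arrays were Xrcc6 (-1.32 to -0.91), Chek2 (-1.34 to -0.89) and Brca1 (-0.85 to -0.72).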

How the results depend on the processing

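No single-gene call changed direction under any alternative run, but the median change of the 31 genes did without single arrays. Without the block 15 of 48 such medians, in 8 of 12 drug contrasts, had the opposite sign (all 6 CD4 contrasts and 10 and 2 nM in CD8 cells), and 44 moved by more than the spread between replicates. With the block 2 of 48 turned, both at 2 nM. Of 60 medians under other settings, 8 moved and 52 did not. The counts below are of the 31 genes called, in the order 10 and 30 nM romidepsin, then 2 and 10 µM vorinostat. With the replicate block they were 10, 13, 18 and 18 in CD8 cells and 13, 15, 6 and 16 in CD4 cells, against 0, 1, 1 and 3 and 1, 3, 1 and 4 without it. The block also gave 18 genes between controls (1 without it), 2, 7 and 4 CD8 minus CD4 differences at 10 nM, 30 nM and 10 µM (0 without it), and for steps from 2 to 10 nM, 10 to 30 nM, 0.5 to 2 µM and 2 to 10 µM 1, 1, 5 and 8 genes in CD8 and 8, 1, 3 and 12 in CD4 cells (0 without it). Quantile normalization without the block gave 1, 6, 5 and 10 genes in CD8 cells, 7, 7 and 8 in CD4 cells at 10 nM, 30 nM and 10 µM, 3 between controls, 4 and 2 for the CD4 steps to 10 nM and 10 µM and 2 for the CD8 step to 10 µM. Equal medians gave 1, 5, 4 and 8 in CD8 cells, 5, 7 and 8 in CD4 cells, 3 between controls, and 3, 3 and 2 for those steps. With no filter the CD4 counts at 2 and 10 µM were 0 and 2, and with the block the CD4 count at 2 µM was 3 and the CD8 count at 10 nM was 4. The cause of these shifts was not tested.

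Leaving out each array in turn without the block gave 0 to 3 genes at 30 nM, 0 to 1 at 2 µM and 2 to 4 at 10 µM in CD8 cells, 0 to 1, 1 to 4, 0 to 1 and 1 to 3 in CD4 cells, and 0 between controls. With the block it gave 0 to 8, 9 to 15, 8 to 17 and 11 to 17 in CD8 cells, 0 to 1 at 0.5 µM, and 4 to 13, 9 to 13, 1 to 5 and 10 to 15 in CD4 cells. Over single genes with the block, leaving out an array lost the call in 150 cases and kept it in 286, and the other settings lost it in 38 and kept it in 398. The distance of a value from the detection level limits what low genes such as Fancg and Bard1 can show. Identical values above that level also recur among replicate 1 arrays, 4.4051 for Fancg, 5.80875 for Fanca and 6.03131 for Chek1. Some replicate 1 arrays read lower still for each gene. Whether these values limit the changes of the 3 genes was not tested.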
